A study of Mus musculus with 6 samples.

Results

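The transcripts described here encode 8 proteins of the SUMO cycle, taken by gene name: Sumo2, Sumo3, Sae1, Uba2, Pias1, Senp1, Senp6 and Rnf4. All 8 were found by symbol among the 24421 genes of the deposited RNA-seq table, and all 8 lay above the filter on low values that left 12710 genes for testing. The libraries came from E14 mouse embryonic stem cells grown in serum with leukemia inhibitory factor and inhibitors of GSK3 (CHIR99021) and MEK (PD0325901). Wild-type cells (2 libraries) were compared with Pml-/- cells (2 libraries), and both groups had received 10 μM paraquat, a compound that makes superoxide inside cells, for 15 h. Every library was therefore treated, so the response to paraquat was not measured. Neither the number of Pml-/- clones nor whether a group's libraries are separate cultures is stated in the labels, and the p-values below therefore reflect the spread of these libraries alone, which may be technical. The series also holds 2 samples of chromatin labelled next to PML, not analysed here.

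SUMO is a small relative of ubiquitin that cells attach to lysines of other proteins. The heterodimer of Sae1 and Uba2 (the E1 enzyme) activates it for transfer, and E3 ligases such as Pias1 help choose the substrate. Proteases of the Senp family mature SUMO and take it off again, with Senp6 acting mainly on chains, and Rnf4 is a ubiquitin ligase that recognises SUMO chains and marks the proteins that carry them for degradation. Pml encodes the scaffold of PML nuclear bodies, is itself modified by SUMO and is a known target of Rnf4, and the bodies gather SUMO and SUMO-modified proteins.

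The Pml transcript was measured first as a check of the labels. It stood at 238 and 228 CPM (reads per 1000000 reads counted in genes) in the wild-type libraries and at 78.7 and 89.7 CPM in the knockout libraries. By this lower level the 4 libraries matched their labels. Pml reads remained in the knockout, at a mean of 0.362-fold of the wild-type level, and the PML protein was not measured here. Library depth ranged from 31384794 to 44130093 reads. Embryonic stem cell markers were abundant, with a summed level of 6143 to 6213 CPM in wild type and 6120 to 6168 CPM in the knockout over 8 genes including Pou5f1 and Nanog. Of these 8, 2 passed the test, Zfp42 being lower and Tdgf1 higher in the knockout. Summed markers of fibroblasts (6 genes), primitive endoderm (4) and trophoblast (3) lay between 5.82 and 8.12 CPM in each library, with Col3a1, Postn, Lum and Elf5 at or near 0, and 0 of the 5 genes above the filter passed. Early neural markers (Sox1, Pax6 and Nes) summed to 62.4 and 66.4 CPM in the wild-type libraries and 46.9 and 47.6 CPM in the Pml-/- libraries, with 2 of 3 lower by the test. The part of this shift in the results below was not tested. The entry for wild-type replicate 2 names only a DNA library kit, while those of the other 3 libraries name an RNA kit; values of the 8 genes without that library are given where their sign, their call or their size (by over 1.5 times) changes.

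None of the 8 SUMO genes passed the test between wild-type and knockout cells. With limma on log2(CPM + 1) and Benjamini-Hochberg adjustment over all tested genes at 0.05, 0 of 8 were called, beside 5.41% of all tested genes (687 of 12710). At an unadjusted p under 0.05 there was 1 of 8, Sumo3, beside 19.3% of all tested genes. The count of 8 was also 0 with edgeR on recovered reads (620 of 14782 genes called) and 0 with DESeq2 (486 of 12941). In the authors' deposited table at a false discovery rate of 0.05 it was 0 as well, beside 3.80% of genes. It was 1, Sumo3, with edgeR without a filter on low counts, beside 1025 of 24421 genes. The call of Sumo3 also changed with replicate numbers fitted as a block and with single libraries left out, as given below. The median log2 fold change (knockout minus wild type) of the 8 was 0.067 and that of all tested genes -0.0029. The median size of the change, sign ignored, was 0.079 for the 8 genes, 0.086 for all tested genes and 0.063 for the 5666 tested genes within the range of mean level of the 8. Values of 7 genes were above 0 and that of Sumo3 was below 0, beside 6230 of all 12710 tested genes above 0. Among the 16 other pathway genes read below, 7 values were above 0 and 9 below. In bulk RNA, fewer cells with a transcript and less of it per cell cannot be told apart.

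**Figure D1:**
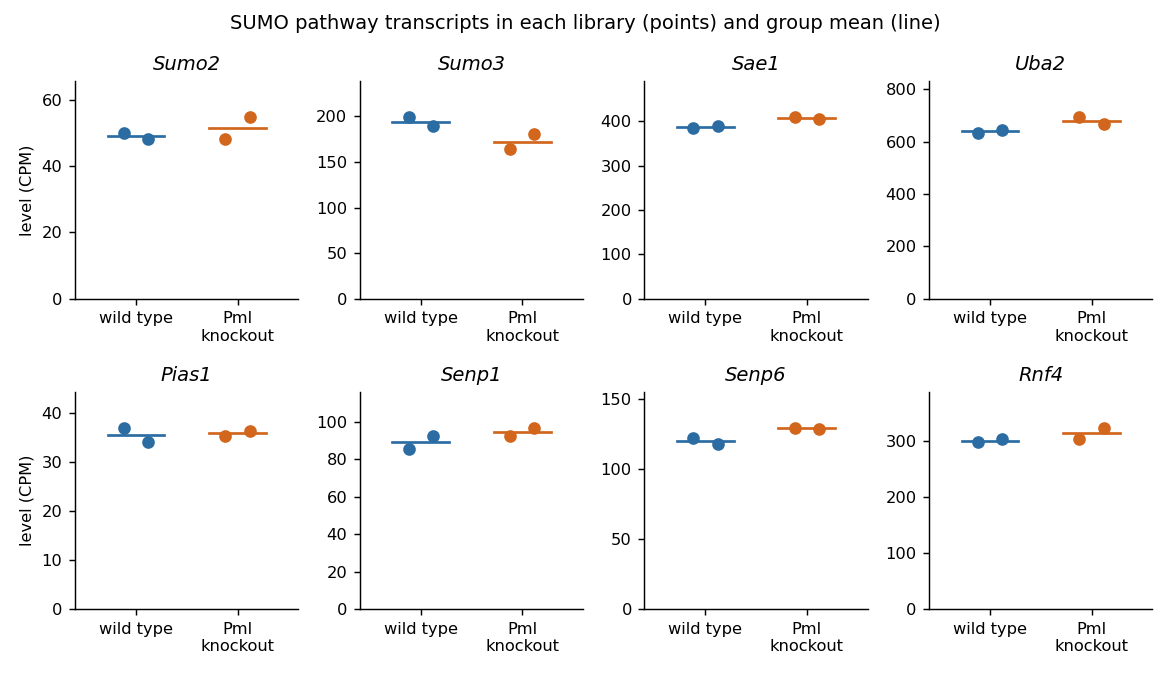
Level in CPM of each of the 8 transcripts, with 1 point per library, a line at the group mean and every vertical axis starting at 0. Sumo3 is the gene whose knockout points, 164 and 180 CPM, both lie below its wild-type points, 190 and 199 CPM; the knockout points of Sumo2 and Pias1 span their wild-type points or lie between them.

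The intervals of the 8 differences were narrow. They reflect the spread of 2 libraries per group, which may be technical, so they do not bound a difference between separate cultures or clones. The standard errors of the 8 log2 fold changes ran from 0.042 to 0.072, and the 95% intervals reached in all from 0.820-fold to 1.156-fold of the wild-type level. The interval of 7 genes held no change, and that of Sumo3 did not. Tested genes in the same range of mean level (35.7 to 659.8 CPM) numbered 5666, of which 374 were called; the smallest called difference among them was 1.11-fold and the median called difference 1.19-fold. Between 1158 and 29186 reads stood behind each value, so that counting error (1 SD) of the gap between the libraries of a group was 0.849 to 3.91%. The observed gaps ran from 0.442 to 12.9% and exceeded that counting error in 7 of 8 genes in wild type and 5 of 8 in the knockout. Such gaps were not particular to the 8 genes. The squared gap, relative to counting error, averaged 5.48 over 15470 genes in wild type and 7.05 over 15554 genes in the knockout.

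The modifiers themselves, Sumo2 and Sumo3, encode nearly identical mature proteins that form chains. Sumo3 lies on chromosome 10 from 77606097 to 77618331 (mm10). Its level was 199 and 190 CPM in the wild-type libraries (194 ± 6.56, SD, n = 2) and 164 and 180 CPM in the knockout (172 ± 11.3, SD, n = 2). Both knockout libraries were below both wild-type libraries, and the knockout libraries differed more from each other than the wild-type libraries did. The difference on the log2 scale was -0.17 (SE 0.053), with a 95% interval of 0.820- to 0.958-fold, but the adjusted p was 0.071 in limma, which misses the threshold. The difference was larger than that of 77.8% of all tested genes.

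The place of Sumo3 beside the threshold depended on single libraries. Its adjusted p in limma was 0.0417 without wild-type replicate 2 and 0.0186 without knockout replicate 2, at log2 fold changes of -0.21 and -0.24. Without wild-type replicate 1 the adjusted p was 0.35, and without knockout replicate 1 it was 0.263, at log2 fold changes of -0.14 and -0.11. With edgeR without a filter on low counts the adjusted p was 0.0464, with the filter 0.111, and with DESeq2 0.148. In limma with replicate numbers fitted as a block it was 0.0258, though the labels do not say that replicate numbers pair the libraries. In the authors' deposited table the false discovery rate of Sumo3 was 0.162.

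Sumo2 lies on chromosome 11 from 115523109 to 115536230. It was measured at 50.2 and 48.4 CPM in the wild-type libraries and 48.1 and 54.8 CPM in the Pml-/- libraries, so the groups overlapped. Sumo2 had a log2 fold change of 0.059 (SE 0.070, interval 0.939- to 1.16-fold, limma adjusted p = 0.711). Leaving out 1 library gave -0.033 without knockout replicate 2, 0.15 without knockout replicate 1 and 0.033 without wild-type replicate 2. Mouse Sumo2 has processed pseudogenes, and the treatment of reads that match several places is not stated in the labels, so its level is uncertain.

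The Sumo3 to Sumo2 ratio of CPM was 3.97 and 3.93 in the wild-type libraries and 3.41 and 3.29 in the Pml-/- libraries. An exact two-sided permutation test of the log2 ratio gave p = 0.333, the smallest value that 2 against 2 libraries allow. Any ratio without overlap between the groups gives that value, so the test decides nothing. Sumo3 did not overlap by itself, so this ratio is not a separate result. The ratio is of reads and depends on transcript length, so it compares libraries and not the genes' numbers of transcripts. The summed level of Sumo2 and Sumo3 was 249 and 238 CPM in the wild-type libraries and 212 and 235 CPM in the Pml-/- libraries.

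The subunits of the E1 enzyme gave the most precise values. Sae1 encodes the smaller subunit and lies on chromosome 7 from 16320236 to 16387896. It stood at 385 and 389 CPM in the wild-type libraries and 409 and 405 CPM in the Pml-/- libraries. Uba2 encodes the subunit with the catalytic cysteine and lies on the same chromosome from 34140697 to 34168590. It stood at 634 and 645 CPM in the wild-type libraries and 692 and 668 CPM in the Pml-/- libraries.

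For both subunits the knockout libraries lay above the wild-type libraries by a small amount that did not pass the test. The log2 fold change of Sae1 was 0.072 (SE 0.042, interval 0.989- to 1.12-fold, limma adjusted p = 0.376). That of Uba2 was 0.088 (SE 0.042, interval 0.999- to 1.13-fold, limma adjusted p = 0.265). The ratio of Uba2 to Sae1 CPM was 1.65 and 1.66 in the wild-type libraries and 1.69 and 1.65 in the Pml-/- libraries, so the ratio overlapped between the groups.

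Pias1, a SUMO E3 ligase, lies on chromosome 9 from 62878366 to 62980879, the chromosome that also carries Pml. It was at 36.9 and 34.0 CPM in the wild-type libraries and 35.3 and 36.3 CPM in the Pml-/- libraries, and both knockout values lay between the wild-type values. Pias1 had a log2 fold change of 0.016 (SE 0.072, interval 0.908- to 1.13-fold, limma adjusted p = 0.937). The value was -0.041 without wild-type replicate 2 and -0.0041 without knockout replicate 2, and it was 0.072 without wild-type replicate 1 and 0.036 without knockout replicate 1.

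Of the proteases, Senp1 processes SUMO precursors and removes SUMO from many substrates, and lies on chromosome 15 from 98038744 to 98093569. It was at 85.6 and 92.1 CPM in the wild-type libraries and 92.2 and 96.6 CPM in the Pml-/- libraries. The groups did not overlap, but wild-type replicate 2 and knockout replicate 1 were almost equal. Senp1 had a log2 fold change of 0.086 (SE 0.056, interval 0.977- to 1.15-fold, limma adjusted p = 0.445). The value was 0.034 without wild-type replicate 1, 0.14 without wild-type replicate 2 and 0.053 without knockout replicate 2. The span of Senp1 overlaps that of Pfkm, a phosphofructokinase gene at 61.0 to 64.1 CPM, and the use of strand in counting is not stated in the labels, so part of its reads may be shared.

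Senp6 trims SUMO2 and SUMO3 chains and lies on chromosome 9 from 80066575 to 80144782. It was at 122 and 118 CPM in the wild-type libraries and 129 and 129 CPM in the Pml-/- libraries, with both knockout libraries above both wild-type libraries. The log2 fold change of 0.10 was the largest of the 7 values above 0 (SE 0.049, interval 0.9995- to 1.16-fold, limma adjusted p = 0.263).

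Rnf4, the SUMO-targeted ubiquitin ligase, lies on chromosome 5 from 34336250 to 34353445. It was at 297 and 303 CPM in the wild-type libraries and 304 and 323 CPM in the Pml-/- libraries. Knockout replicate 1 was within 2 CPM of wild-type replicate 2, and the higher mean of the knockout came mostly from its other library. Its log2 fold change was 0.061 (SE 0.045, interval 0.976- to 1.12-fold, limma adjusted p = 0.507), 0.018 without knockout replicate 2 and 0.10 without knockout replicate 1.

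The libraries of the groups did not overlap in 6 of the 8 genes, beside 49.3% of all tested genes. The exceptions were Sumo2 and Pias1. They also had the fewest reads of the 8, and whether read number bears on the overlap was not tested. The authors' deposited table gave the same direction for all 8 genes, with its lowest false discovery rate at 0.162 for Sumo3.

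**Figure D2:**
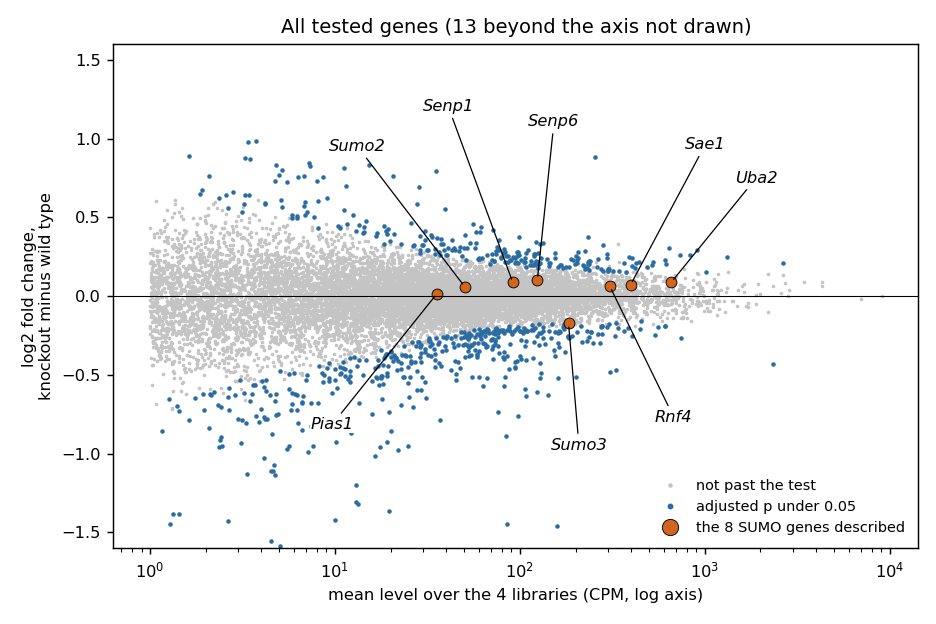
Log2 fold change (knockout minus wild type, log2(CPM + 1) scale) against mean level over the 4 libraries (CPM, log axis) for every tested gene, with genes at an adjusted p under 0.05 in blue, the 8 SUMO genes in orange, and 13 genes beyond 1.6 on the vertical axis left out. Sumo3, at -0.17, sits at the lower edge of the grey cloud, and the other 7 lie inside it between 0.016 and 0.10.

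The rest of the pathway was read from a list of 16 further genes: 7 E3 ligases, the conjugation cofactor Rwdd3, 7 proteases and the SUMO-targeted ubiquitin ligase Rnf111. All 16 were tested, 1 was lower in the knockout and 0 were higher, with a median log2 fold change of -0.012. The 1 of 16 stands beside 5.41% of all tested genes called in either direction. At an unadjusted p under 0.05 there were 4 of 16, beside 19.3% of all tested genes.

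The gene that passed was Senp2, a nuclear pore-associated protease that matures and removes SUMO. It fell from 122 and 111 CPM in wild type (117 ± 7.26, SD, n = 2) to 103 and 96.8 CPM in the knockout (100.03 ± 4.52, SD, n = 2), and the groups did not overlap. For Senp2 the log2 fold change was -0.22 (SE 0.057, interval 0.790- to 0.935-fold, limma adjusted p = 0.0378). In limma the call ended without wild-type replicate 1 (log2 fold change -0.16, adjusted p = 0.338) and without knockout replicate 2 (-0.17, adjusted p = 0.182). It also ended with DESeq2 (-0.21, adjusted p = 0.0517) and with no filter on low values in limma (-0.22, adjusted p = 0.1005), at nearly the same size. Over the 13 alternatives run the call held in 9 and ended in these 4. Among those where it held were edgeR with the filter (adjusted p = 0.048) and without it (adjusted p = 0.0112). The log2 fold change in limma was -0.28 without wild-type replicate 2 and -0.26 without knockout replicate 1. The authors' deposited table gave Senp2 a false discovery rate of 0.0316.

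The other 3 genes with an unadjusted p under 0.05, named after their values were seen, did not pass the adjusted test. Pias2, an E3 ligase and paralog of Pias1, was at 298 and 296 CPM in the wild-type libraries and 321 and 327 CPM in the Pml-/- libraries (log2 fold change 0.12, limma adjusted p = 0.109). Pias4, another paralog, was at 87.2 and 86.9 CPM against 81.0 and 77.3 CPM (log2 fold change -0.14, limma adjusted p = 0.179). Values of these paralogs had opposite signs while Pias1 was near 0; the difference between paralogs was not tested. The summed level of the 4 Pias genes was 465 and 461 CPM in the wild-type libraries and 482 and 486 CPM in the Pml-/- libraries. This sum is of reads and Pias2 weighed most in it, so it does not describe each Pias gene. Desi2, annotated as a deSUMOylating isopeptidase, was at 57.2 and 61.1 CPM against 63.5 and 66.3 CPM (log2 fold change 0.13, limma adjusted p = 0.253).

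Among the Senp proteases taken as a family, values for the 6 that act on SUMO lay on both sides of 0. Senp1 and Senp6 had values above 0, while Senp2, Senp3, Senp5 and Senp7 had values from -0.22 to -0.068, of which Senp2 passed the test. The ratio of Senp1 to Senp2 CPM was 0.703 and 0.827 in the wild-type libraries and 0.893 and 0.997 in the Pml-/- libraries, without overlap and not tested. Senp1 and Senp2 each did not overlap by themselves, in opposite directions, so this ratio adds no separate result. The summed level of the 6 genes was 755 and 729 CPM in the wild-type libraries and 718 and 716 CPM in the Pml-/- libraries. Senp3 weighed most in this sum, at 376 and 360 CPM in the wild-type libraries and 349 and 346 CPM in the Pml-/- libraries.

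**Figure D3:**
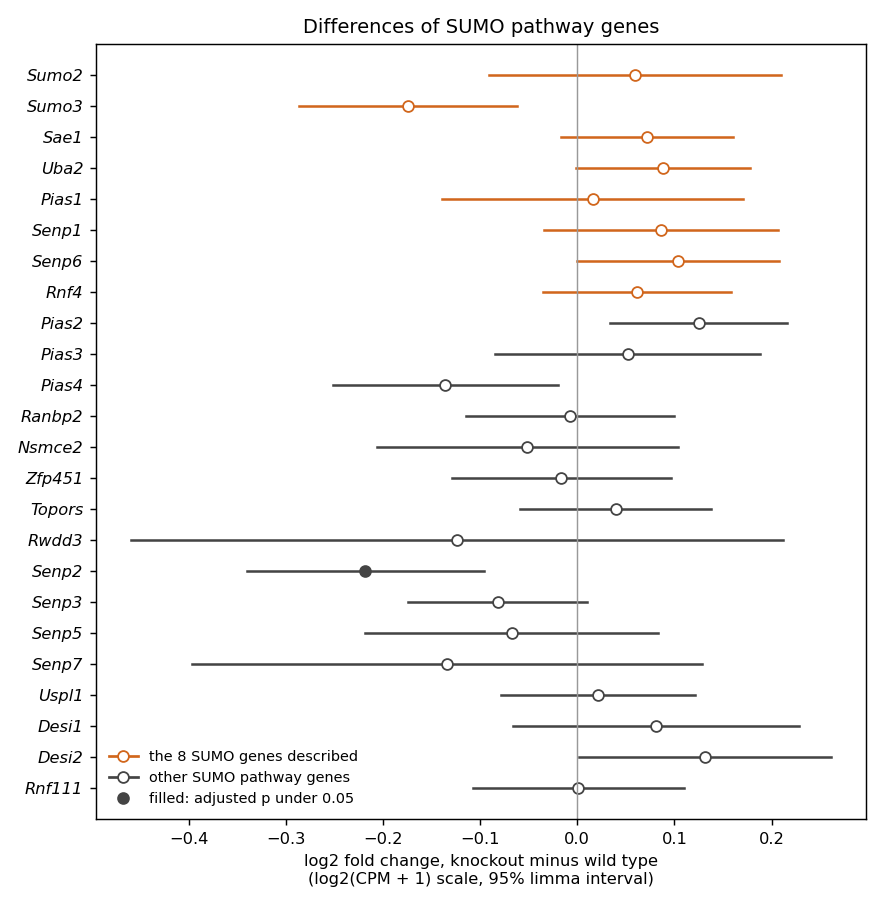
Log2 fold change (knockout minus wild type) with its 95% limma interval for the 8 SUMO genes described (orange) and the 16 other pathway genes (grey), filled where the adjusted p was under 0.05. Senp2 at -0.22 is the filled point, and the interval of Sumo3 ends at -0.062, below 0.

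Genes whose values across the 4 libraries followed Sumo3 most closely were found by Euclidean distance of the log2(CPM + 1) deviations from each gene's own mean, among 2381 tested genes within 2-fold of its mean level. The nearest were Midn (distance 0.021), Ifitm3 (0.028) and Msi2 (0.039), against a median distance of 0.226. The nearest of so many genes are close by selection, and any relation of them to Sumo3 was not tested. Within a distance of 0.1 lay 72 of the 2381 genes. Midn was at 256 and 244 CPM in the wild-type libraries and 215 and 233 CPM in the Pml-/- libraries (limma adjusted p = 0.085).

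**Figure D4:**
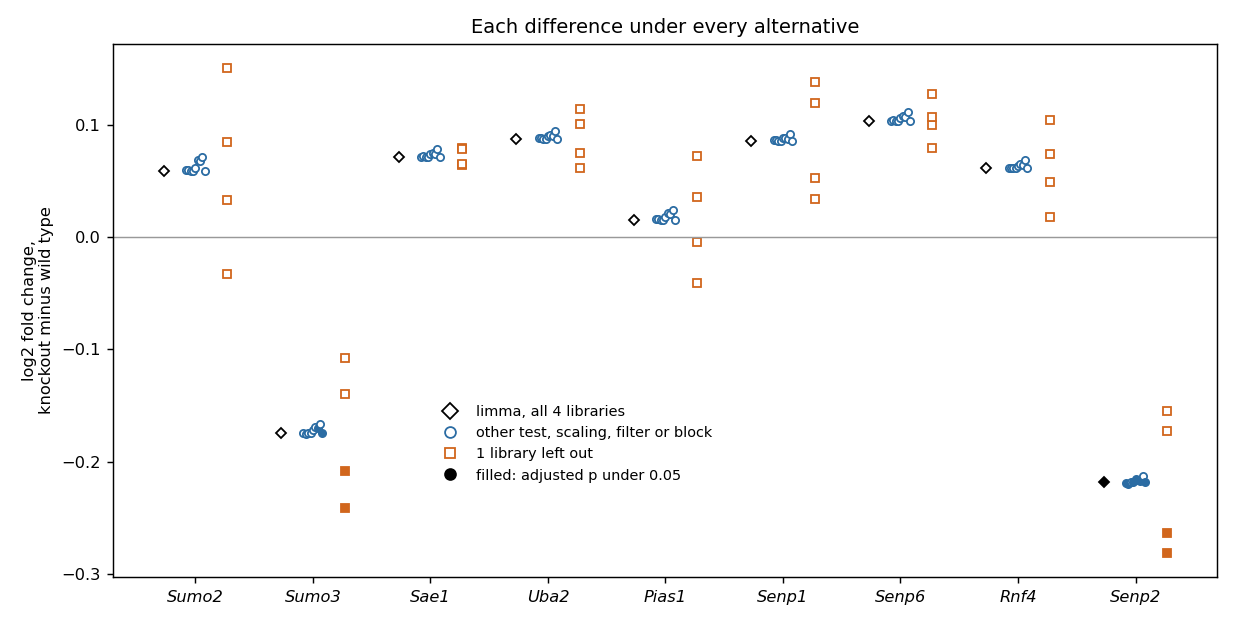
Log2 fold change of the 8 genes and of Senp2 in limma with all 4 libraries (black), under other tests, scalings, filters or the replicate block (blue) and with 1 library left out (orange), filled where the adjusted p was under 0.05. Leaving out a library moved Sumo3 between -0.24 and -0.11 and took Sumo2 and Pias1 across 0.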

How the data were processed

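Polyadenylated RNA of 4 libraries was used. The submitters' processing notes name cutadapt, TopHat and edgeR, on mm10; they state no version, annotation or counting rule. The authors deposited CPM values per library, a log2 fold change (wild type over knockout), a mean log2 CPM, and p-values with false discovery rates. CPM values were whole multiples of 1 read in 100% of cases (tolerance 0.001 reads), which recovered the read totals.

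The main test was limma with a mean-variance trend (version 3.58.1, in R 4.3.3), fitted on log2(CPM + 1) to genotype alone across the 12710 genes averaging at least 1 CPM; it understates changes of low genes. edgeR 4.0.16 quasi-likelihood called 620 of 14782 genes on the recovered reads; this and DESeq2 1.42.0 were alternatives. Scripts were tested on simulated data. Intervals from counts cover counting error only. Positions are from RefSeq genes of GRCm38.p6. Transcript lengths were not used, so levels are not compared between genes. The 8 genes, the gene lists and the alternatives were chosen with earlier results of these data known. Some genes of the pathway list are not reported here. By rule, the 8 genes, Pml, called genes of the other lists and the 3 nearest profiles to the gene with the smallest adjusted p were named; other genes with values were chosen after their values were seen.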

Additional observations from a re-analysis of the deposited data

How the results depend on the processing

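Over 13 alternatives, Sae1, Uba2, Senp1, Senp6 and Rnf4 kept a value above 0 and none of them passed the threshold. The count of called genes among all tested was 687, with 298 when no filter was applied to genes with a read, 1198 with the replicate block and 423 to 879 with 1 library left out. Of the 8 SUMO genes 0 were called, but 1, Sumo3, with edgeR without a filter, 1 with the replicate block (adjusted p = 0.0258) and 0 to 1 with 1 library left out. Of the 16 other pathway genes 1 was called, with 0 in limma when no filter was applied and 0 with DESeq2. With edgeR it was 1 with the filter and 1 without it. The call also depended on single libraries, as given above for Senp2. The value of Sumo2 ran from -0.033 to 0.15 and that of Pias1 from -0.041 to 0.072 with 1 library left out; the cause was not tested. With 1 library left out, the lone library is assumed to vary like the pair. Labels do not say that replicate numbers pair the libraries; differences between replicates 1 and 2 correlated across genes at 0.12 between the groups.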

Other observations

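Proteins that read or extract SUMO chains, such as Vcp, the segregase that pulls modified proteins out of complexes, gave 0 of 7 genes past the limma test, with a median log2 fold change of 0.068 and a range from -0.070 to 0.092. At an unadjusted p under 0.05 there were 0 of 7. Over all tested genes, 5.41% passed the limma test and 19.3% had an unadjusted p under 0.05, the background for the counts of this list and of the 2 lists that follow. Vcp was at 400 and 406 CPM in the wild-type libraries and 400 and 384 CPM in the Pml-/- libraries (adjusted p = 0.675).

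Enzymes of related modifiers were read in the same way. Of 14 genes of the NEDD8 pathway, which activates cullin ubiquitin ligases, 0 passed the limma test, with a median of 0.027, and 1, Dcun1d4, had an unadjusted p under 0.05. Dcun1d4, a NEDD8 ligase cofactor, was at 45.6 and 43.5 CPM in the wild-type libraries and 50.5 and 48.8 CPM in the Pml-/- libraries (log2 fold change 0.15, adjusted p = 0.201). Of 8 genes of the UFM1 pathway, a modifier of ribosomes at the endoplasmic reticulum, 0 passed, with a median of -0.035. In that pathway 1 gene had an unadjusted p under 0.05, the protease gene Ufsp2, at 17.0 and 18.2 CPM in the wild-type libraries and 14.4 and 15.0 CPM in the Pml-/- libraries (log2 fold change -0.25, limma adjusted p = 0.162). The count was 0 for each of these 3 lists with edgeR, with DESeq2 and under all other alternatives run.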
